A study of Rattus norvegicus with 4 samples.

Results

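The Bcl2 family of apoptosis regulators was followed here in rat liver through 10 genes, chosen by name among the 16992 annotated genes of the deposited tables. The members were the anti-apoptotic genes *Mcl1*, *Bcl2l1*, *Bcl2a1*, and *Bcl2*, the effectors *Bax* and *Bak1*, and the BH3-only genes *Bid*, *Bcl2l11*, *Bbc3*, and *Pmaip1*. All 10 were present in every table with 1 row each, and 8 of the 10 had levels above 2 TPM (the deposited measure of transcript abundance, scaled for gene length and within each library) in all 4 livers.

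The family decides whether the outer mitochondrial membrane stays intact. BAX and BAK1 form the pores that release cytochrome c, and anti-apoptotic proteins such as MCL1 and BCL-XL (the product of *Bcl2l1*) hold them in check. BH3-only proteins such as BIM (*Bcl2l11*), PUMA (*Bbc3*), NOXA (*Pmaip1*), and BID relay stress or death receptor signals. BH3-only proteins bind to anti-apoptotic proteins, and some of them also to BAX and BAK1. Hepatocytes are known to depend on MCL1 and BCL-XL for survival, and BID links death receptors to mitochondria in these cells.

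The livers came from 4 wild type male Wistar rats, purchased at 6 weeks of age, with 1 rat for each condition. Rats inhaled 4.5% sevoflurane or 6% desflurane, and were sacrificed either after 6 hours (SevoAnes, DesAnes) or as soon as consciousness was lost (the control for each agent). All rats were deprived of food before anesthesia, received oxygen with the agent, and were sacrificed at about the same time of day, and a piece of the left lateral lobe was taken. Both controls had therefore inhaled an agent briefly, and no liver without an agent was part of the comparison. With 1 library per condition, differences have no replicate check, no SD and no p-value were calculated, and the difference between the 2 controls was the only measure of how much livers of similar treatment differed.

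The libraries held between 4.47 and 5.40 Gb of aligned sequence, and between 9474 and 9695 genes with values above 2 TPM. The most abundant hepatocyte marker, *Alb*, which encodes albumin, was at 83368 TPM in the sevoflurane control, 79111 TPM after sevoflurane, 77519 TPM in the desflurane control, and 92912 TPM after desflurane. The sevoflurane control stood apart from the other livers by its pancreatic acinar genes, which together reached 57.1 TPM compared with 16.2 to 18.8 TPM elsewhere. Most of the sum elsewhere was *Cela1*, at 15.1 to 18.4 TPM beside 22.8 TPM in the sevoflurane control. *Prss1*, *Ctrb1*, and *Pnlip* had 6.58, 8.94, and 3.45 TPM in the sevoflurane control and were at 0 in the other livers. For this reason, each liver after 6 hours was compared with its own control and with the control of the other agent. These comparisons share control livers and are not independent of each other.

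Promoter sequence is shown for the 3 members that bear on the results below, *Bcl2l11* and *Bcl2a1*, which were lowest after sevoflurane and ran alike over the 4 livers, and *Pmaip1*, which was listed at 0 after either agent. The 250 bases before the start of each gene are printed 5′ to 3′ on the strand of the gene, from RefSeq on the GRCr8 build, in which 8 of the 10 members had an entry (*Bax* and *Bbc3* had none). Capitals mark matches to the motifs searched.
Bcl2l11, chr3:135819792-135820041, plus strand: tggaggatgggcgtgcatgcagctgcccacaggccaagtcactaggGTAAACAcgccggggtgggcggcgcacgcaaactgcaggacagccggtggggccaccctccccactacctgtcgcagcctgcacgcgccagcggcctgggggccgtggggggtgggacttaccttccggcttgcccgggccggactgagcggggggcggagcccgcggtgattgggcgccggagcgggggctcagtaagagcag
Bcl2a1, chr8:98596556-98596805, plus strand: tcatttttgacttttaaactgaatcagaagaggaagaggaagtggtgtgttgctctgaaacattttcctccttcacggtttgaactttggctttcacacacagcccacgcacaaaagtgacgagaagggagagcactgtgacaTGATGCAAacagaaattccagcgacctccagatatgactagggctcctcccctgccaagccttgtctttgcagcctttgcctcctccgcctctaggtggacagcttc
Pmaip1, chr18:62255720-62255969, plus strand: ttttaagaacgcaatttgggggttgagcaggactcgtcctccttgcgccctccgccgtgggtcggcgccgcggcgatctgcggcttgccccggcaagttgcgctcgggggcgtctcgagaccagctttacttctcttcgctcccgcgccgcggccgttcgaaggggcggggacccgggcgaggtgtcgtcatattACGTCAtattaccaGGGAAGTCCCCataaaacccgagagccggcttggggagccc

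The windows of *Bcl2l11* and *Pmaip1* were rich in G and C (72.0% and 64.8%), and that of *Bcl2a1* was not (48.8%). The motifs searched, on both strands, included the FOXO core GTAAACA, the cAMP response element core ACGTCA, the E-box CACGTG, the CHOP and ATF4 composite core TGATGNAA, and an NF-kB site. The capitals in *Bcl2l11* are the FOXO core, 204 to 198 bases before the start, a motif found in 3.21% of 33469 promoter windows of the same length. Those in *Bcl2a1* are the CHOP and ATF4 core, 107 to 100 bases before the start, found in 3.40% of windows. *Pmaip1* held the cAMP response element core 55 to 50 bases before the start (6.95% of windows) and overlapping NF-kB matches on both strands from 41 to 31 bases before it (6.33% of windows), which did not overlap the former. These matches describe the letters of the windows, and binding was not measured.

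Among the anti-apoptotic genes, *Mcl1* was by far the most abundant member of the family. Its values were 74.6 TPM in the sevoflurane control, 76.1 TPM after sevoflurane, 63.0 TPM in the desflurane control, and 81.9 TPM after desflurane. The liver after desflurane was the highest and the desflurane control the lowest, a difference of 1.30-fold. Sevoflurane differed from its own control by 1.02-fold, which was less than the difference between the controls. *Mcl1* (chr2:197786212-197788992, plus strand, rn6) alone made up 51.5% and 49.3% of the summed TPM of the 10 members in the sevoflurane and desflurane controls, and 58.8% and 55.9% after 6 hours of the respective agent.

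*Bcl2l1*, which encodes BCL-XL, had 10.7 TPM in the sevoflurane control, 8.91 TPM after sevoflurane, 9.94 TPM in the desflurane control, and 11.7 TPM after desflurane. The 4 values lay close together, with log2 changes of -0.27 with sevoflurane and 0.23 with desflurane against the own control. The direction with desflurane depended on the measure. Coverage scaled by library depth was 0.741 times that of its own control and 0.562 times that of the sevoflurane control. However, this gene does not share the ratio of FPKM to coverage on which that scaling rests. Its FPKM was 3.84 after desflurane, 3.44 in the desflurane control, and 4.21 in the sevoflurane control. The span of this gene (chr3:148259594-148313810, minus strand, rn6) held a strandless assembled row of 163 to 271 TPM in 3 livers and a longer one of 52.2 TPM in the sevoflurane control, and its part in the values was not tested.

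*Bcl2a1* encodes A1, a short-lived anti-apoptotic protein best known from leukocytes. It had 9.88 TPM in the sevoflurane control, 4.96 TPM after sevoflurane, 6.98 TPM in the desflurane control, and 9.68 TPM after desflurane. Sevoflurane had the lowest value of the 4 livers, 1.99-fold below its own control and just short of the 2-fold limit, whereas desflurane was 1.39-fold above its own control and level with the sevoflurane control (0.980-fold). The controls themselves differed by 0.706-fold, so that against the desflurane control the value after sevoflurane was 0.710-fold. The gene lies at chr8:96551424-96559527 on the plus strand (rn6).

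*Bcl2*, the founder of the family, was low in all livers. It had 1.05 TPM in the sevoflurane control, 0.759 TPM after sevoflurane, 1.30 TPM in the desflurane control, and 0.715 TPM after desflurane. Both livers after 6 hours were below both controls, by 1.39-fold to 1.82-fold, but no value passed the limit of 2 TPM. These levels correspond to aligned bases worth 14.1 to 28.4 reads per library, and counting error alone allowed a ratio from 0.180 to 1.39 for desflurane against its own control. The gene spans chr13:26605426-26769374 on the minus strand (rn6).

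**Figure D1:**
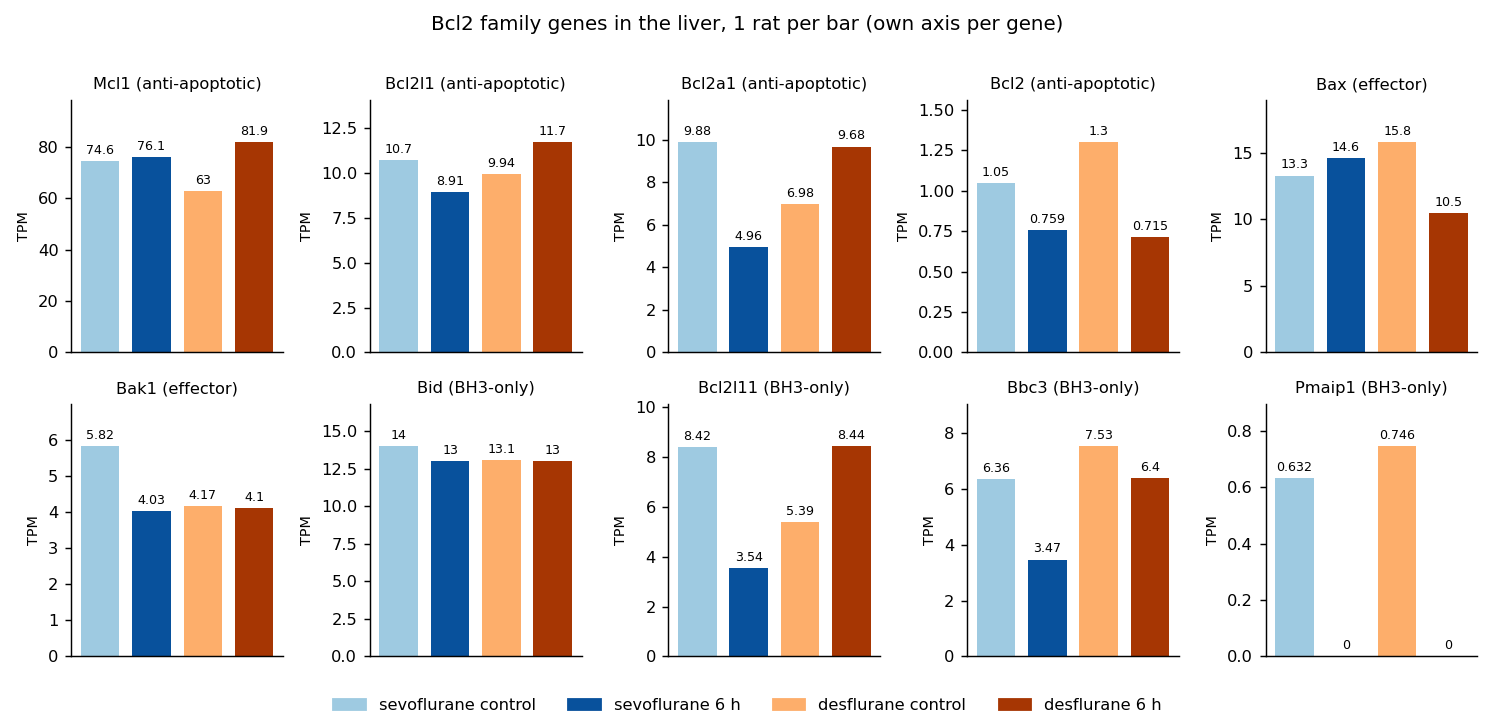
TPM of the 10 Bcl2 family genes (vertical axes, each gene on its own axis from 0) in the 4 livers, with 1 rat per bar and no error bars. *Mcl1* stands between 63.0 and 81.9 TPM, *Bcl2l11* is at 3.54 TPM after sevoflurane and at 5.39 to 8.44 TPM in the others, and *Pmaip1* is at 0 in both livers after 6 hours.

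Both effectors were expressed at modest levels. *Bax* had 13.3 TPM in the sevoflurane control, 14.6 TPM after sevoflurane, 15.8 TPM in the desflurane control, and 10.5 TPM after desflurane. The liver after desflurane was the lowest, with a log2 change of -0.58 against its own control and 0.790 times the level of the sevoflurane control. By aligned bases, *Bax* after desflurane was 1.59-fold lower than its own control, with a counting interval from 1.18 to 2.15. After sevoflurane it was 1.09 times its own control and 0.926 times the other. *Bax* lies at chr1:101451801-101457208 on the minus strand (rn6).

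*Bak1* had 5.82 TPM in the sevoflurane control, 4.03 TPM after sevoflurane, 4.17 TPM in the desflurane control, and 4.10 TPM after desflurane. One liver stood out, the sevoflurane control, and the others lay within 4.03 to 4.17 TPM. Pancreatic acinar genes were highest in the same liver, and their part in this value was not tested. The ratio to the sevoflurane control (0.693 with sevoflurane and 0.705 with desflurane) was therefore not found against the desflurane control (0.967 and 0.984). *Bak1* lies at chr20:5609621-5618260 on the minus strand (rn6). The ratio of *Bax* to *Bak1* was 2.29, 3.62, 3.78, and 2.57 in the sevoflurane control, after sevoflurane, in the desflurane control, and after desflurane, and that of *Bax* to *Bcl2l1* was 1.24, 1.64, 1.59, and 0.901.

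Of the BH3-only genes, *Bid*, whose protein is cut by caspase-8 downstream of death receptors, was the steadiest member of the family. It had 14.0 TPM in the sevoflurane control and 13.0, 13.1, and 13.0 TPM after sevoflurane, in the desflurane control, and after desflurane. Ratios to either control lay between 0.925 and 0.992. The gene is located at chr4:153443220-153465247 on the minus strand (rn6).

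*Bcl2l11*, which encodes BIM, an activator of BAX and BAK1 controlled by FOXO factors and by growth factor signals, varied most among the members with values above 2 TPM in every liver. It had 8.42 TPM in the sevoflurane control, 3.54 TPM after sevoflurane, 5.39 TPM in the desflurane control, and 8.44 TPM after desflurane. The value after sevoflurane was the lowest, 2.37-fold below its own control (log2 change -1.25), and *Bcl2l11* was the only 1 of the 10 members called in this comparison. A call requires more than 2 TPM in the higher state and more than a 2-fold difference, and it was met in the downward direction by 3.30% and in the upward direction by 2.23% of all genes with more than 2 TPM in either liver. Among genes of 2 to 20 TPM, where most members lie, 3.98% were called downregulated. Shares of genes called, here and below, are of genes with more than 2 TPM in either liver compared. Counts of called members and list genes include genes below this level, such as *Bcl2* and *Pmaip1*, which could not be called.

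The desflurane control lay between, at 0.640 times the sevoflurane control, and against it the value after sevoflurane was 0.658-fold (log2 change -0.60), within the difference between the controls. Desflurane was 1.57-fold above its own control (log2 change 0.65) and at the level of the sevoflurane control. *Bcl2l11* was thus 2.38-fold higher after desflurane than after sevoflurane, the only member called between the livers after 6 hours, where 2.76% of genes were called higher and 1.17% lower after desflurane.

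The *Bcl2l11* values rested on more aligned sequence than those of any other member for which it could be worked out. The bases behind them were worth 763, 302, 508, and 717 reads in the sevoflurane control, after sevoflurane, in the desflurane control, and after desflurane. Counted in read pairs and scaled by depth, the gene was 2.46-fold lower after sevoflurane than in its own control, with a 95% exact interval from 2.03 to 2.99, and 1.49-fold higher after desflurane than in its own control, with an interval from 1.26 to 1.75. The controls differed by 0.566-fold on this scale, with an interval from 0.481 to 0.665, and by 0.640-fold in TPM. Scaling by depth also shifted other genes. Between the controls, the median log2 difference of the genes with more than 2 TPM in all livers was -0.20 with depth-scaled coverage and -0.03 with TPM. These intervals cover counting error only and not the difference between rats. The gene spans chr3:120726906-120764192 on the plus strand (rn6) and no other annotated gene overlaps it there. The assembled row on the same strand had 9.51, 3.54, 5.39, and 10.3 TPM in the same order. Its average coverage, scaled by depth and multiplied by the genomic span in kb, gave 96.2, 50, 66.7, and 69.9. The liver after sevoflurane was the lowest by either measure. In the desflurane control and after desflurane, the coverage of this row was 9.59 and 9.56, although its TPM was 5.39 and 10.3. The reason for this mismatch was not tested.

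*Bbc3*, which encodes PUMA, had 6.36 TPM in the sevoflurane control, 3.47 TPM after sevoflurane, 7.53 TPM in the desflurane control, and 6.40 TPM after desflurane. The liver after sevoflurane was the lowest again and below both controls, which differed from each other by only 1.18-fold. The difference was 1.83-fold against its own control (log2 change -0.87), short of the limit, and 2.17-fold against the desflurane control (log2 change -1.12). *Bbc3* was the only member called in the latter comparison, in which 2.59% of genes were called downregulated and 2.52% upregulated. By read pairs the difference from the desflurane control was 1.98-fold, with a counting interval from 1.35 to 2.95. In this comparison the median log2 change of genes with more than 2 TPM in all livers was 0.20 with depth-scaled coverage and 0.07 with TPM. Desflurane differed by 0.851-fold and 1.01-fold from its own and the other control. The gene lies at chr1:78261505-78267802 on the plus strand (rn6).

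*Pmaip1*, which encodes NOXA, a binding partner of MCL1, was listed at 0.632 TPM in the sevoflurane control, 0 after sevoflurane, 0.746 TPM in the desflurane control, and 0 after desflurane. Both livers after 6 hours were thus at 0 and both controls were not. The values in the controls came from 361 and 444 aligned bases, worth about 3.57 and 4.40 reads, so that a fall could not be told from sampling at this depth and no fold change is given. The gene lies at chr18:62174850-62178837 on the plus strand (rn6).

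**Figure D2:**
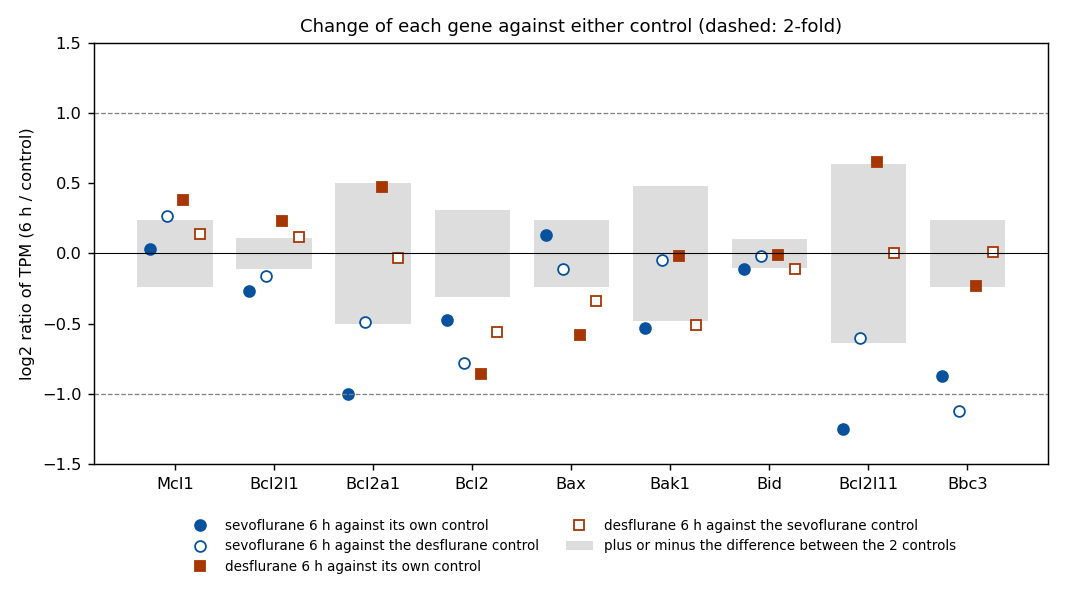
Log2 ratio of TPM after 6 hours to control (vertical axis) for 9 Bcl2 family genes (*Pmaip1*, listed at 0, has no ratio), with circles for sevoflurane and squares for desflurane, filled against the own control and open against the control of the other agent. Grey boxes give plus or minus the difference between the 2 controls, and dashed lines the 2-fold limit, which *Bcl2l11* (-1.25) and *Bbc3* (-1.12) pass downward with sevoflurane.

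With desflurane, 0 of the 10 members were called in either direction against its own control. Of genes above 2 TPM in either liver, 2.79% were called upregulated there and 1.48% downregulated. Against the sevoflurane control 0 were called as well, with 2.84% of genes upregulated and 1.58% downregulated. Between the 2 controls 0 members were called, and 1.17% of genes were called in each direction. With sevoflurane, 1 of the 10 members was called against each control, beside backgrounds of 3.30% and 2.59%, and no test of this count was made.

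Over the 8 members with more than 2 TPM in all livers, the median log2 change with sevoflurane was -0.40 against its own control and -0.13 against the desflurane control, beside 0.05 and 0.07 for the 9136 genes above this level. With desflurane it was 0.11 and -0.01 against its own and the other control, beside 0.12 and 0.10. The median of the same 8 genes between the controls was -0.18. In direction, 6 of these 8 members were lower after sevoflurane than in its own control and 7 of 8 lower than in the desflurane control, compared with 42.9% and 40.6% of the 9136 genes. After desflurane, 4 of 8 were lower than in its own control and 4 of 8 lower than in the other, compared with 33.0% and 35.8%.

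Summed by role, anti-apoptotic transcripts reached 96.3 TPM in the sevoflurane control, 90.7 TPM after sevoflurane, 81.2 TPM in the desflurane control, and 104 TPM after desflurane, most of it *Mcl1*. Effectors summed to 19.2, 18.6, 19.9, and 14.6 TPM in the same order, with only the liver after desflurane apart. The 4 BH3-only members summed to 29.4, 20, 26.8, and 27.9 TPM, with only the liver after sevoflurane apart. This sum leaves out further BH3-only genes such as *Bmf*, described below. *Bmf* had 34.9, 6.11, 40.9, and 13.5 TPM in the same order and was below both controls after either agent. As a share of the 10 members, BH3-only transcripts were 20.3%, 15.5%, 20.9%, and 19.0%.

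*Bcl2l11* and *Bcl2a1* are also expressed by leukocytes, and marker genes of leukocytes and macrophages were lower in the same liver. The 12 leukocyte markers summed to 253 TPM in the sevoflurane control, 126 TPM after sevoflurane, 181 TPM in the desflurane control, and 169 TPM after desflurane, and 11 of 12 were lower after sevoflurane than in its own control, with *Ptprc*, *Cd53*, *Rac2*, and *Tyrobp* past the limits. The 10 macrophage markers summed to 719, 452, 561, and 684 TPM, and 10 of 10 were lower after sevoflurane than in its own control, with *Marco*, *Csf1r*, and *Adgre1* past the limits. In this comparison 3.30% of genes were called downregulated and 42.9% of the 9136 genes were lower. Against the desflurane control, 11 of 12 and 10 of 10 were lower, but only *Ptprc*, *Rac2*, and *Marco* passed the limits (2.59% of genes). The desflurane control was itself lower than the sevoflurane control in 11 of 12 and 9 of 10. The 10 markers of T and NK cells were low, at 13.0, 4.49, 8.50, and 8.57 TPM in all, and 9 of 10 were lower after sevoflurane than in its own control. Neutrophil markers reached at most 4.83 TPM in all, with *Camp* at 0 in every liver.

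As a percentage of the sevoflurane control, *Bcl2a1* was at 50.2% after sevoflurane, 70.6% in the desflurane control, and 98.0% after desflurane, and *Bcl2l11* was at 42.0%, 64.0%, and 100%. The macrophage sum was at 62.9%, 78.0%, and 95.1%, and the leukocyte sum at 49.8%, 71.5%, and 66.8%. For both genes and the macrophage markers, the liver after sevoflurane was the lowest, the desflurane control came next, and the other two were close together, while the leukocyte sum after desflurane stayed below both controls. The sum of the hepatocyte markers, most of which came from *Alb*, stayed between 95.3% and 106%, while single markers moved more, such as *Tat* with 234, 464, 212, and 241 TPM, which was called upregulated with sevoflurane against the desflurane control (2.19-fold). In whole liver, fewer cells of a type and less RNA per cell cannot be told apart, and the part of these cells in the values of *Bcl2l11* and *Bcl2a1* was not tested.

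**Figure D3:**
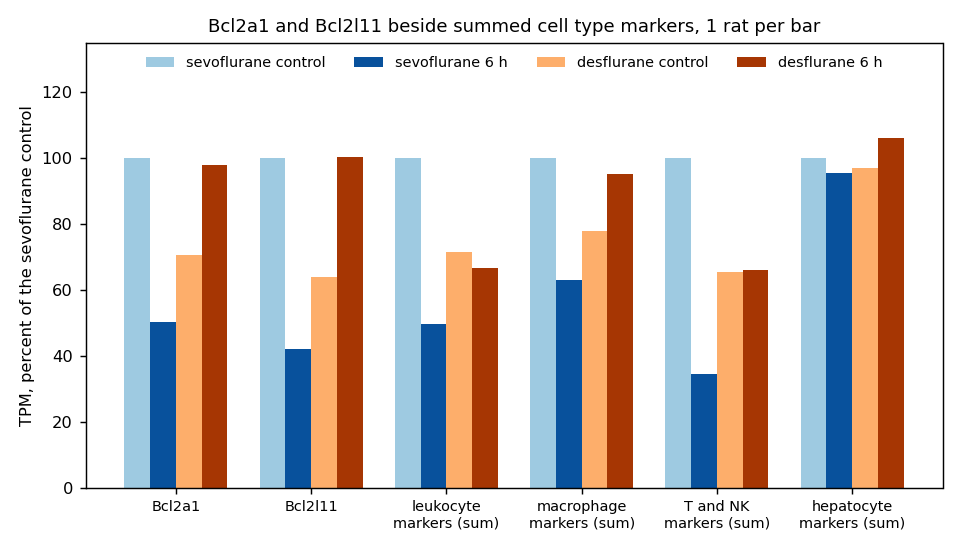
TPM of *Bcl2a1* and *Bcl2l11* and summed TPM of 4 marker lists (groups of bars), as a percentage of the sevoflurane control (vertical axis, from 0), with 1 rat per bar. After sevoflurane both genes and the leukocyte, macrophage, and T and NK cell sums stand at 34.5% to 62.9%, while the hepatocyte sum stands at 95.3%.

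The genes whose profile over the 4 livers was nearest to that of *Bcl2l11* were sought among the 9136 genes with more than 2 TPM in every liver, by the Euclidean distance between centred log2 TPM values. The nearest was *Arhgap8* (distance 0.060), with 19.4, 8.04, 11.9, and 19.8 TPM in the sevoflurane control, after sevoflurane, in the desflurane control, and after desflurane. *Tank* (0.15) had 10.3, 4.62, 7.63, and 11.1 TPM, and *Pdgfc* (0.19) had 6.27, 2.49, 3.54, and 5.31 TPM. With 4 points per gene, such likeness is a description of these livers.

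Among 13 further genes of the Bcl2 family, the BH3-only gene *Bmf* was the single one called in any comparison with a control. Its protein is held at the cytoskeleton until cells are stressed. Of genes above 2 TPM in either liver, 1.48% to 3.30% were called per comparison and direction. The 13 include genes that never reached this level. *Bmf* was called downregulated in all 4 comparisons. Its values were 34.9 TPM in the sevoflurane control, 6.11 TPM after sevoflurane, 40.9 TPM in the desflurane control, and 13.5 TPM after desflurane. Both livers after 6 hours were far below both controls, which were close to each other. *Bmf* was 5.72-fold and 6.69-fold lower after sevoflurane than in its own and the other control, and 3.02-fold and 2.58-fold lower after desflurane. By read pairs, the counting intervals against the own control ran from 4.80 to 7.31 with sevoflurane and from 2.75 to 3.70 with desflurane. In the controls *Bmf* was thus more abundant than any BH3-only gene among the 10 members.

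The most abundant of the 13, the mitophagy receptors *Bnip3* and *Bnip3l*, did not pass the limits. *Bnip3* had 52.2, 57.6, 42.5, and 71.3 TPM and *Bnip3l* had 43.0, 50.7, 35.2, and 46.0 TPM, in the order of sevoflurane control, sevoflurane, desflurane control, and desflurane. *Bcl2l15* was listed at 0 in all livers.

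Downstream of the family, 0 of 18 genes of the apoptosome, caspases, and their inhibitors were called in any of the 4 comparisons with a control. The background was 1.48% to 3.30% of genes above 2 TPM per comparison and direction, at which few calls among 18 genes are the usual case. *Cycs*, which encodes cytochrome c, had 70.1, 93.6, 90.2, and 77.8 TPM in the sevoflurane control, after sevoflurane, in the desflurane control, and after desflurane, and the mitochondrial flavoprotein gene *Aifm1* had 63.8, 61.8, 62.5, and 70.6 TPM. Of 11 mitochondrial partners of the family, such as the channel gene *Vdac1* (137, 156, 132, and 136 TPM) and the adenine nucleotide carrier gene *Slc25a5* (264, 285, 246, and 277 TPM), 0 were called. Against the own control, 1 of 11 was lower after sevoflurane and 0 of 11 after desflurane, beside 42.9% and 33.0% of the 9136 genes. The median log2 changes were 0.19 and 0.25, beside 0.05 and 0.12 for those genes.

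Upstream, in the death receptor pathway, 0 of 14 genes were called against the own control with either agent. The share of genes above 2 TPM called there was 1.48% to 3.30% per agent and direction, so few calls among 14 genes are the usual case. Against the desflurane control, sevoflurane had a 2.02-fold higher level of the TNF receptor gene *Tnfrsf1a* (78.7, 94.6, 46.9, and 84.2 TPM in the sevoflurane control, after sevoflurane, in the desflurane control, and after desflurane) and a 2.59-fold lower level of *Tnfrsf1b* (15.5, 7.80, 20.2, and 13.3 TPM). In that comparison 1 of 14 genes was called in each direction, beside 2.52% of genes upregulated and 2.59% downregulated. *Cflar*, the inhibitor of caspase-8 and second most abundant of the list, had 21.7, 21.9, 18.3, and 29.7 TPM.

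Among 10 genes of stress and FOXO signaling, *Trib3*, a pseudokinase gene induced by ATF4 and CHOP, was called upregulated in all 4 comparisons. It had 3.79 TPM in the sevoflurane control, 14.9 TPM after sevoflurane, 4.31 TPM in the desflurane control, and 9.69 TPM after desflurane. These were 3.93-fold and 3.46-fold above the own and the other control with sevoflurane, and 2.25-fold and 2.56-fold with desflurane. *Chac1*, another target of ATF4, was 2.91-fold and 2.11-fold higher with sevoflurane but 2.59-fold lower with desflurane than in its own control, with 2.36, 6.89, 3.26, and 1.26 TPM. With sevoflurane, 2 of 10 were called up and 0 down against its own control, beside 2.23% and 3.30% of genes. Against the desflurane control these were 2 and 1, beside 2.52% and 2.59%. With desflurane they were 1 and 1 against its own control (2.79% and 1.48%), and 1 and 0 against the other (2.84% and 1.58%).

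*Atf4* itself had 100, 172, 136, and 109 TPM and *Foxo1* had 31.2, 33.5, 31.4, and 39.4 TPM, in the order of sevoflurane control, sevoflurane, desflurane control, and desflurane, with no call. *Atf3* was called downregulated with sevoflurane against the desflurane control (2.40-fold), at 0.789, 1.05, 2.53, and 1.71 TPM.

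The list for the turnover of MCL1 and other family proteins (8 genes) also held signaling genes such as *Stat3* and *Il6st*. This list and that for NF-kB (6 genes) held 0 called genes in the 4 comparisons. The share of genes above 2 TPM called was 1.48% to 3.30% per comparison and direction, so 0 calls in lists of this size are the usual case. *Huwe1* and *Fbxw7* of the former list and *Relb*, *Rel*, and *Tnfaip3* of the latter were not found and are not covered. Their most abundant members were *Ywhaz* (115, 117, 107, and 97.6 TPM) and *Il6st* (112, 85.9, 97.2, and 163 TPM) in the former, and *Rela* (36.8, 32.4, 32.1, and 33.0 TPM) and *Nfkbia* (32.6, 52.5, 26.5, and 42.4 TPM) in the latter, in the same order of livers.

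**Figure D4:**
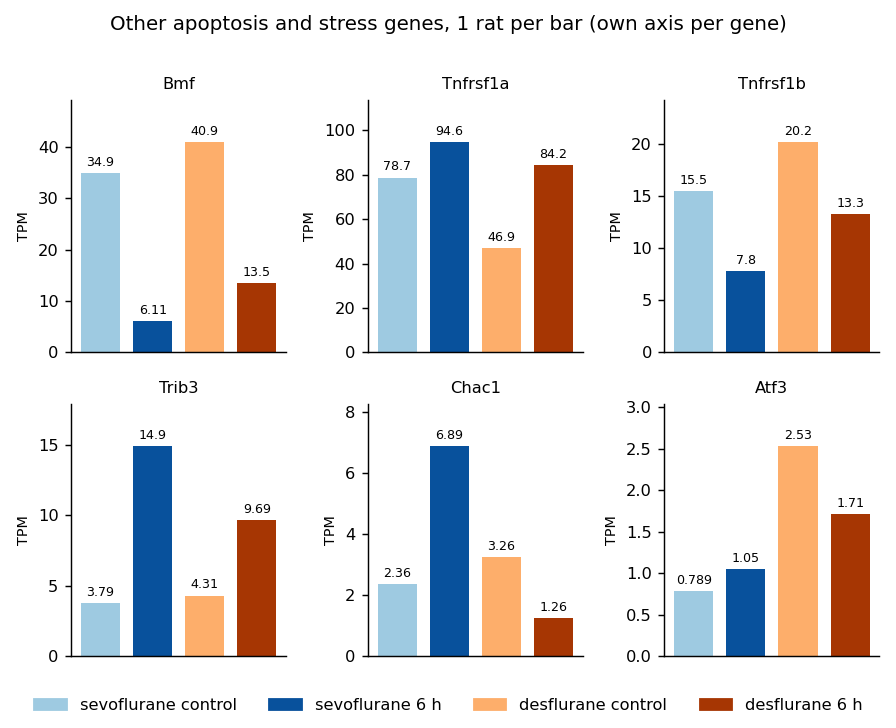
TPM (vertical axes, each gene on its own axis from 0) of 6 genes of the other Bcl2 family, death receptor, and stress lists that passed the limits in at least 1 comparison of a liver after 6 hours with a control, with 1 rat per bar and no error bars. *Bmf* is at 6.11 and 13.5 TPM after 6 hours compared with 34.9 and 40.9 TPM in the controls, and *Trib3* is at 14.9 and 9.69 TPM compared with 3.79 and 4.31 TPM.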

How the data were processed

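Liver RNA of 4 rats was sequenced in paired-end 101 bp reads, with 1 library per condition, and conditions were taken from the labels. The labels and the methods of the study name different Illumina stranded total RNA kits. The authors trimmed the reads, mapped them to rn6 with HISAT2, sorted them with SAMtools, and ran StringTie with the refGene annotation. Whether strand was used in counting is not given in the sources used here.

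The TPM column of the deposited tables is a signal scaled by StringTie within each library, so that the assembled rows alone add up to 1000000 and the annotated rows, on the same scale, to a further 779824 to 813454. The FPKM column was normalized by the authors for library size, and the average coverage per gene was not. Annotated rows longer than 200 bp were kept, and TPM was summed per Gene ID. The calling rule is that of the study: more than 2 TPM in the higher state and more than a 2-fold difference, without a pseudocount. No test was made with 1 library per condition.

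Depth was calculated from the ratio of FPKM to coverage, shared within 0.2% by 96.3% to 96.5% of annotated rows with coverage above 1. For 8 of the 10 members, the aligned bases were recovered as coverage times the shortest length that gave whole bases in every library, and 202 bases were counted as 1 read pair for exact 95% intervals of counting error, with reads not independent molecules.

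The members and the lists of other genes were chosen with earlier results of these data known. The 10 members are named, with the called and the 2 most abundant genes of each other list, the most abundant or undetected markers, the called markers where they are few, and the 3 nearest profiles to the member that varied most. Of 198 genes in 19 lists, 188 were found. Most values of 1 list are not reported here. Lists not described in the report were markers of endothelial cells (236 to 273 TPM in all), stellate cells and fibroblasts (316 to 352 TPM), cholangiocytes (11.2 to 17.3 TPM), and erythroid cells (34.7 to 85.6 TPM). Alternatives covered the TPM and fold limits, a pseudocount, scaling, FPKM, the choice of rows, the length filter, and the control. Coverage scaled by depth and the alternatives for the comparisons between controls and between the livers after 6 hours were added after seeing the data. Python 3.11.15, numpy 2.4.6, and pandas 2.3.3 were used, and the rule for calls was checked on simulated libraries.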

Additional observations from a re-analysis of the deposited data

Results flagged for a closer look

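In 4 members, the liver after sevoflurane lay on one side of its own control and the liver after desflurane on the other, a difference that was not tested, with 1 rat for each condition. The log2 changes against the own control were -1.25 with sevoflurane and 0.65 with desflurane for *Bcl2l11*, -1.0 and 0.47 for *Bcl2a1*, 0.13 and -0.58 for *Bax*, and -0.27 and 0.23 for *Bcl2l1*. For *Bcl2l1* this was not found with depth-scaled coverage, which gave -0.63 with sevoflurane and -0.43 with desflurane. This gene does not share the ratio of FPKM to coverage on which that scaling rests. For *Bcl2l11* and *Bcl2a1*, the desflurane control was the lower of the 2 controls, and the liver after desflurane had 8.44 and 9.68 TPM, beside 8.42 and 9.88 TPM in the sevoflurane control.

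Assembled transcripts, which were not used for the values of the members, gave signal without a strand or on the opposite strand within the spans of 4 of them. In *Bcl2l1* and *Bak1* it was above the own control after sevoflurane, and over *Bax* and *Bcl2a1* opposite-strand rows had at most 1.53 and 1.07 TPM, both in the sevoflurane control. A strandless row inside *Bcl2l1* had 271 TPM after sevoflurane and 52.2 TPM in its own control. Its length was 689 bp in the former and 3268 bp in the latter, and depth-scaled coverage times length in kb was 70.7 and 66.9. The RefSeq annotation of GRCr8 places the pseudogene *Rps2-ps43* (972 bp) within *Bcl2l1*, and whether it corresponds to the strandless row on rn6 was not tested. A row on the strand opposite to *Bak1* had 3.98 TPM after sevoflurane and none in its own control, with 2.92 TPM in the desflurane control and 1.75 TPM after desflurane.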

How the results depend on the processing

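With 1 rat per condition, no value of a member has a biological error, and the sevoflurane control held transcripts of pancreatic genes. Of 252 log2 values recalculated for single members, 232 differed from the reported value by no more than the difference between the controls, 20 differed by more, 23 took the other sign, and 0 called values reversed. Part of this likeness was fixed in advance. The choice of rows and the length filter cannot change members with 1 row each. The mean of the controls cannot move a value by more than the difference between them. Of 118 counts of called members, 98 stayed within 1.5 times, which again includes the choice of rows and the length filter. The number called downregulated with sevoflurane against its own control (1) became 2 without a TPM limit (*Pmaip1* added), 3 at 1.5-fold (*Bbc3* and *Bcl2a1* added), 0 at 3-fold, 2 with median-of-ratios scaling, FPKM, or depth-scaled coverage (*Bcl2a1* added), and 0 against the mean of the controls. Against the desflurane control (1) it became 2 without a TPM limit (*Pmaip1* added), 2 at 1.5-fold (*Bcl2l11* added), and 0 at 3-fold, with a pseudocount of 1 TPM, FPKM, depth-scaled coverage, or the mean of the controls. With desflurane (0), 1 member, *Pmaip1*, was called downregulated against either control without a TPM limit, and 1, *Bcl2l11*, upregulated against its own control at 1.5-fold. Between the controls (0), 1 member, *Bcl2l11*, was called at 1.5-fold. Between the livers after 6 hours (1), 3 were called at 1.5-fold (*Bbc3* and *Bcl2a1* added) and 0 at 3-fold. The change of limit accounts for its own rows by construction, and the cause of the others was not tested. FPKM moved the median log2 change of the 9136 genes from 0.07 to 0.20 with sevoflurane against the desflurane control, and from 0.10 to -0.15 with desflurane against the sevoflurane control. Leaving out a replicate was not possible. No paired analysis was possible because each condition has 1 library.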

Other observations

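*Pmaip1* was set beside other genes of its level, a comparison chosen after its values were seen. Of 329 genes with 0.5 to 1 TPM in both controls, 1 was listed at 0 after sevoflurane, 2 after desflurane, and 1 after both, which was *Pmaip1* itself. The median of these genes was 0.694 TPM after sevoflurane and 0.823 TPM after desflurane. The *Pmaip1* values in the controls rest on about 4 reads each. These genes were matched on TPM and not on reads. The length recovered for *Pmaip1* was 318 bp, and longer genes have more reads at the same TPM. The comparison therefore cannot tell a fall of *Pmaip1* from sampling.

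Some stress genes differed between the controls, and they are named here after their values were seen. The cell cycle inhibitor gene *Cdkn1a* (2.91, 4.47, 8.56, and 5.36 TPM in the sevoflurane control, after sevoflurane, in the desflurane control, and after desflurane) and the growth arrest gene *Gadd45a* (8.31, 14.5, 22.1, and 13.0 TPM) were highest in the desflurane control. The AP-1 gene *Jun* (18.1, 24.7, 45.2, and 27.5 TPM) had its highest value in the same liver.

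In the 250 bases before the other starts, *Bcl2l1* had the CHOP and ATF4 core in 3 windows, which belong to different starts of the gene, at 171 to 164, 189 to 182, and 54 to 47 bases before the start, the last 2 of which are the same bases in overlapping windows. *Mcl1* had an NF-kB match 99 to 90 bases before the start on the minus strand, and *Bcl2* had the CHOP and ATF4 core 244 to 237 bases before it. The E-box was not matched in the windows of the 8 members with an entry, and this says nothing about the binding of a factor.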
